A study of Drosophila melanogaster with 2 samples.

Results

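The cytoplasmic ribosomal protein genes of Drosophila melanogaster were examined in a map of where the tagged protein Her was recovered on the genome. They were taken from the Ensembl BDGP6 annotation as the protein-coding genes whose symbol starts with RpL or RpS followed by a digit or P, together with sta, the gene of the small-subunit protein SA. The rule gave 93 of the 13945 protein-coding genes on the main chromosome arms, 54 of the large and 39 of the small subunit. Genes of the mitochondrial ribosome and kinases that act on ribosomal proteins were left out. The genes were picked by symbol, and the choice of this group was made with earlier results of these data known. The map came from chromatin immunoprecipitation and sequencing of whole embryos of both sexes, 0 to 24 hours old, of a transgenic line, her-GFP, in which the her product is fused at its C-terminus to GFP. An antibody against GFP was used for the precipitation. Both of the 2 biological replicates carried the tag and were called against 1 shared control, so there was 1 group and no contrast between conditions. The embryos mixed all tissues and stages of embryogenesis, and the map cannot say in which cells a site was occupied. An untagged line and RNA levels were not analysed here.

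Ribosomal proteins assemble with ribosomal RNA into the large and small subunits, which join on messenger RNA to make protein. Growing cells need them in equal amounts, and loss of a gene copy of many of them gives the Minute flies, with short bristles and slow growth. In flies most of these genes start transcription within a run of pyrimidines, the TCT initiator, which is served by the TBP-related factor Trf2, and their mRNAs carry the pyrimidine run at the 5′ end. her (hermaphrodite) encodes a zinc-finger protein that acts in sex determination.

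Most ribosomal protein genes had a peak at their own start. Of the 93 genes, 70 (75.3%) had the summit of a thresholded peak no further than 1 kb from an annotated transcription start, against 23.3% of all protein-coding genes. A thresholded peak is a region that passed the authors' irreproducible discovery rate (IDR) threshold, and 3930 did on the dm6 build. The share was 65.6% (61 genes) for summits within 100 bp of a start, against 12.1% of all protein-coding genes. For 64 genes (68.8%) no other gene of any kind had a start nearer to the summit, against 16.9% of all protein-coding genes. In the relaxed list made from both replicates, which holds 30000 regions and reaches far below the threshold, 86 genes (92.5%) had a summit within 1 kb, against 62.1%. These shares describe 1 experiment and were not tested. The sources used here do not give the read depth. Each region carries a signal value on the authors' own scale, which is not stated, so it is used below only to rank regions within a list and each replicate's value is read against its own list.

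A summit within 1 kb can belong to a neighbour. A gene's own summit is therefore taken below as the strongest within 1 kb for which no other gene has a start nearer by more than 200 bp. By that rule 67 genes had an own thresholded summit, 3 had only a summit nearer another gene, and 23 had none. The 67 own summits were 67 different peaks. Their signal ran from 96.8 to 824 with a median of 245, and that of 2736 other protein-coding genes ran from 90.8 to 9479 with a median of 145. Of the 67, 58 (86.6%) were among the stronger 1965 of the 3930 peaks and 18 (26.9%) among the strongest 393, against 53.5% and 12.5% of the own summits of other genes. The highest signals of the whole list lay elsewhere, and the strongest own summit of a ribosomal protein gene held rank 109.

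**Figure D1:**
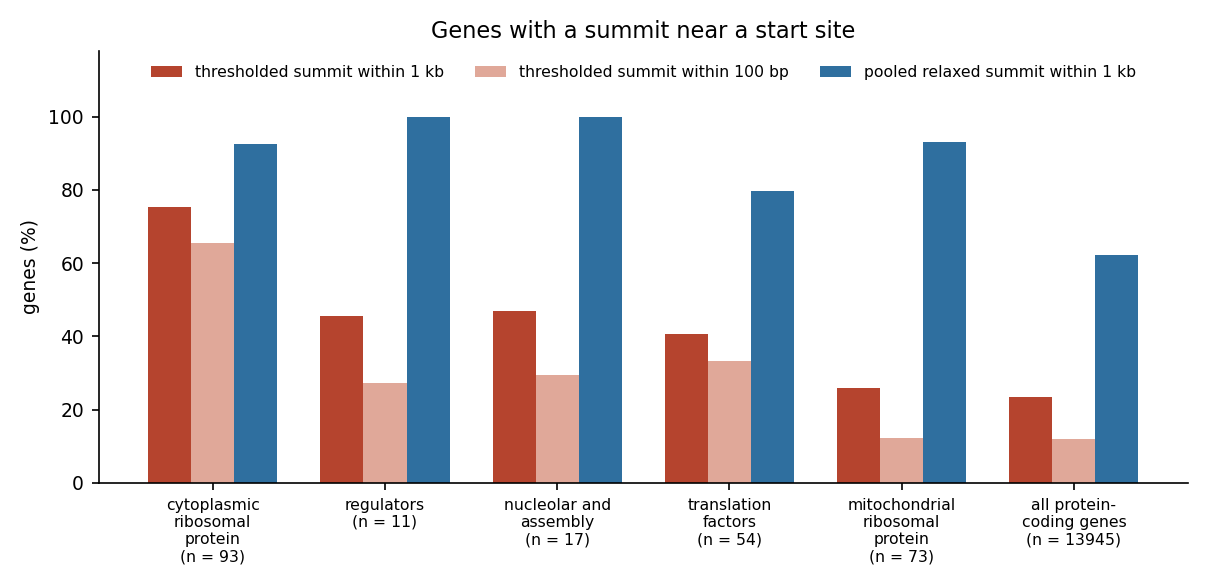
Share of genes (%, y axis) with a summit near a start site for the cytoplasmic ribosomal protein genes, 4 lists of related genes and all protein-coding genes (x axis, number of genes in brackets). Dark bars are thresholded summits within 1 kb, pale bars thresholded summits within 100 bp and blue bars pooled relaxed summits within 1 kb; the cytoplasmic ribosomal protein genes reach 75.3%, 65.6% and 92.5%, and all protein-coding genes 23.3%, 12.1% and 62.1%.

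The summits sat close to the start of transcription. Among the 67 own summits the median position was 15 bp upstream of the nearest start of the gene, and the middle of the distribution ran from 37 bp upstream to 3 bp downstream (quartiles). For other protein-coding genes the median was 55 bp upstream and the quartiles were 154 bp upstream and 6.25 bp downstream. Within 30 bp of the start lay 48 of the 67 summits (71.6%), against 20.7% of the summits of other genes. Upstream of the start lay 47 (70.1%), against 72.6%. The 20 downstream summits all lay within 29 bp of the start, whereas 389 other genes (14.2%) had their summit more than 50 bp downstream. The median position was similar in each library, with 11 bp upstream in replicate 1, where 84 of the 93 genes had an own region in the relaxed list, and 13 bp upstream in replicate 2, where 87 had. In these longer lists the medians of other genes were 20 and 23 bp upstream, nearer to those of the members. Within 30 bp lay 54.8% and 46.0% of the members' regions, against 17.3% and 16.0%. More than 50 bp downstream lay 9 (10.7%) and 11 (12.6%) of them, against 32.1% and 33.0%.

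**Figure D2:**
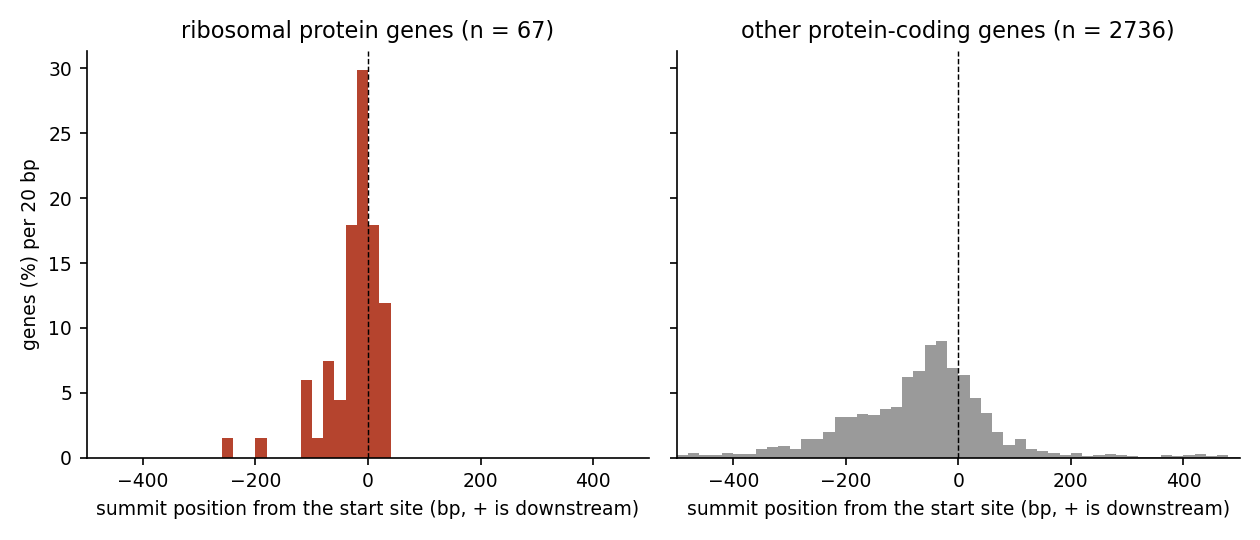
Position of the own thresholded summit from the nearest start of the gene in bins of 20 bp (x axis, bp, positive is downstream, drawn from -500 to 500) as a share of genes (y axis, %), for ribosomal protein genes (left, n = 67) and other protein-coding genes (right, n = 2736, of which 235 lie outside the drawn range). The ribosomal protein summits form a narrow peak around the start and none lies more than 29 bp downstream, while those of other genes spread upstream.

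The strongest own summits belonged to genes of both subunits. RpL7, which encodes a large-subunit protein, led with signals of 473 in replicate 1, 354 in replicate 2 and 824 in the pooled data. Its peak spanned chr2L:10200860-10201194 at a gene on the plus strand, with the summit 24 bp downstream of its start. RpS27, a zinc-finger protein of the small subunit, had 399.8 in replicate 1, 320.1 in replicate 2 and 712 in the pooled data, with its summit 9 bp upstream of its start in a peak at chr3R:25247349-25247702. In both replicates these 2 genes held the highest own signals of all members. RpL14 had signals of 331 in replicate 1, 250.5 in replicate 2 and 577 in the pooled data (chr3L:8600791-8601118, summit 21 bp upstream of its start). RpS7 had more signal in replicate 2 than in replicate 1, with 263 in replicate 1, 313 in replicate 2 and 572 in the pooled data. Its summit lay 116 bp upstream of its start. RpL23A had 311 in replicate 1, 245 in replicate 2 and 547 in the pooled data, with the summit 91 bp upstream of its start.

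Signals at the next members lay close together, so their order within this range is not firm. RpL41, which encodes a very short protein, had 263 in replicate 1, 204 in replicate 2 and 464 in the pooled data. RpL34b had 207 in replicate 1, 243 in replicate 2 and 451 in the pooled data, so replicate 2 gave it the higher value. RpL30 had 259 in replicate 1, 189 in replicate 2 and 446 in the pooled data, with the summit 29 bp downstream of its nearest annotated start. RpL32, the gene widely used as a reference transcript in flies under the name rp49, had 259 in replicate 1, 182 in replicate 2 and 432 in the pooled data. RpL22 had 230.1 in replicate 1, 198 in replicate 2 and 431 in the pooled data and RpL13A 293 in replicate 1, 133 in replicate 2 and 420.4 in the pooled data. The gap between libraries was widest at RpL13A among these. RpL11, RpL24 and RpS4 followed at 403, 399 and 398 in the pooled data, with 236 and 173, 229 and 175 and 211 and 186 in replicates 1 and 2.

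The sequences around the starts show what surrounds these summits. Each run below gives 70 bases before and 30 bases from the annotated start of the canonical transcript onwards, 5′ to 3′ on the gene's strand, from the RefSeq Release 6 assembly (dm6). Capitals mark a match to the TCT initiator core, taken here as CTTTTT or its variant CTTTCT, beginning within 10 bp of the annotated start on the sense strand, or to a further core: TATCGATA (the DRE, bound by Dref), GGTCACAC (Motif 1, bound by M1BP), CACGTG (the E-box of Myc type), CAGCTG (a second E-box), TATAAA (the TATA box) or GAGAGA (the GAGA element), each on either strand. RpL14, RpL30 and RpL22 hold a TCT core, while RpL7 and RpS27 hold none there, and in RpL7 a CACGTG lies between the start and the summit. These 5 of the strongest members are shown to let the start be compared with the summit position, here from 62 bp upstream (RpL22) to 24 bp downstream (RpL7) of the start shown. The RpL30 summit lies 40 bp upstream of the start shown and 29 bp downstream of another annotated start of that gene.
RpL7 (chr2L:10200934-10201033, plus strand): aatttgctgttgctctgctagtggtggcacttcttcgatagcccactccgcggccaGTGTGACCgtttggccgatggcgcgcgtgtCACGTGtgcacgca
RpS27 (chr3R:25247485-25247584, minus strand): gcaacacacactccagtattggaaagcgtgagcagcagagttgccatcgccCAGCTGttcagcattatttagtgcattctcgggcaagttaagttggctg
RpL14 (chr3L:8600936-8601035, plus strand): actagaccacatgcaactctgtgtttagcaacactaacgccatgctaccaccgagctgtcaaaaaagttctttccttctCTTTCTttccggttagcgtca
RpL30 (chr2L:19009208-19009307, minus strand): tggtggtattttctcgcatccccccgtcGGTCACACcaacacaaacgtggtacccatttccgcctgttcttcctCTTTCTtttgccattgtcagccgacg
RpL22 (chrX:765101-765200, minus strand): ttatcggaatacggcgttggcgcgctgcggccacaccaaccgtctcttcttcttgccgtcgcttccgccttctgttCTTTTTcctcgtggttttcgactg

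The stalk that recruits elongation factors is built from RpLP0, RpLP1 and RpLP2. RpLP0 had a pooled signal of 308, with 177 and 141 in replicates 1 and 2. RpLP1 had 173, with 115 and 57.4. RpLP2 stayed below the threshold at 74.3, with 46.4 and 39.4. RpL5 and RpL11 bind the 5S ribosomal RNA together. RpL11 was among the strongest at 403, while RpL5 had no region in the pooled list and only 37.3 and 25.6 in replicates 1 and 2. RpL40 and RpS27A are both made as fusions with ubiquitin. RpS27A had an own summit of 169.9 (replicates 98.8 and 72.8), 28 bp upstream of its start, and RpL40 had none above the threshold and 19.1 and 12.4 in replicates 1 and 2. RpS30, a fusion with a ubiquitin-like protein, had 194, with 95.5 and 97.3.

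At the core of the large subunit, RpL3 had a pooled signal of 161 (replicates 95.7 and 67.3), RpL4 had 179 (99.6 and 78.8) and RpL8, near the peptidyl transferase centre, had 293 (176 and 117). These 3 summits lay within 13 bp of the start. In the small subunit RpS2 had 117 (70.9 and 46.3), RpS23, close to the decoding site, had 166 (91.4 and 74.9), and RpS12, which has a role in cell competition between Minute and normal cells, had 260.4 (147 and 113). RpS6, the phosphorylation target of the growth kinase S6k, had 116 (71.0 and 46.9), which is low in the range of the members. sta had 246 (177 and 80.6), with the summit 23 bp upstream of its start. RpS18 and RpS16 had 289.8 and 264, and RpL19 and RpL9 had 245 and 236. The medians of the own thresholded signals, 240.1 over 42 large-subunit genes and 246 over 25 small-subunit genes, differed by far less than the spread of members within each subunit.

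The weakest members that passed and those just below the threshold lay close to each other. RpL6 (pooled signal 96.8), RpS14a (99.1) and RpS19a (99.8) were the lowest inside the thresholded list, whose lowest signal was 90.8. RpL10 (82.6) and RpS9 (79.7) were among those just outside. RpS14a rested mostly on replicate 1, with 78.8 and 20.5 in replicates 1 and 2. RpL10, which is known for a role in joining the subunits, had 51.0 and 30.9.

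Of the 23 genes with no thresholded summit within 1 kb, 14 are the sole gene of their name. Of these, 10 had an own summit in the pooled relaxed list, and most sat at the start like those above the threshold. Among them were RpL10 (8 bp upstream of its start), RpS9 (86 bp upstream of its start), RpS26 (pooled signal 77.8, 9 bp downstream of its start), RpLP2 (42 bp upstream of its start), RpS3 (63.9, 156 bp downstream of its start), RpL21 (50.8, 38 bp downstream of its start) and RpS13 (48.6, 507 bp downstream of its start). In replicates 1 and 2 RpS26 had 55.2 and 23.9, RpS9 had 44.4 and 39.9, RpS3 had 48.2 and 27.7, RpL21 had 18.0 and 30.6 and RpS13 had 28.1 and 39.8. For RpS3, a protein of the mRNA entry site, and for RpL21 and RpS13 the regions of the libraries lay at different distances from the start. The RpS9 region lay 105 bp downstream of its start in replicate 1 and 93 bp upstream in replicate 2. That of RpLP2 lay 42 bp upstream in replicate 1 and 189 bp downstream in replicate 2. The 4 of the 14 with no own summit in the pooled list were RpL5, RpL15, RpL38 and RpL40.

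The runs below come from 3 of these genes, in the same window and with the same capitals, that stayed below the threshold although a TCT core lies at the start of each. In RpL21 a pair of matches overlap.
RpS26 (chr2L:18443199-18443298, minus strand): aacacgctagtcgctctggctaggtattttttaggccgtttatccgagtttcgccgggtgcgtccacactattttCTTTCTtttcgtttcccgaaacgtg
RpS3 (chr3R:23358742-23358841, plus strand): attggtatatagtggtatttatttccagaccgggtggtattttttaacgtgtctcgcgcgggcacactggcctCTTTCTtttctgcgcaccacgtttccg
RpL21 (chr2L:22247804-22247903, minus strand): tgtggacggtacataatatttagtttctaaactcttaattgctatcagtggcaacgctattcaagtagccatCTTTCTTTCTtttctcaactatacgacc

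RpL5, RpL15 and RpL38 lie in or next to pericentromeric chromatin, which in flies is rich in repeats. RpL15 (chr3L:27267255-27268445) ends 841782 bp from the centromeric end of its assembled arm and had no region in replicate 1 and 25.1 in replicate 2. RpL5 (chr2L:22532279-22536884) lies 976828 bp from the end of its arm, and its weak regions lay at the start in both libraries, 10 bp upstream in replicate 1 and 13 bp upstream in replicate 2. RpL38 (chr2R:4515388-4516458) had no own region in replicate 1 and 18.1 in replicate 2, in a region 895 bp downstream of its start. The nearest thresholded summit of any kind lay 4388370 bp from RpL15, 1147402 bp from RpL38 and 637203 bp from RpL5. It lay 348386 bp from RpL21, which is 1265837 bp from its arm's end. For RpL10, 5014756 bp from the end of its arm, it lay 216586 bp away. These genes therefore sit in long stretches without any thresholded peak. How well reads could be placed there was not tested. RpL40 (chr2L:4227699-4228561) lies far from a centromere, and the nearest thresholded summit was 55081 bp away.

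In most families with several copies 1 copy had the peak. Among the 93 genes, 27 fall into 13 families that share a base symbol. In 10 families exactly 1 copy had an own thresholded summit, and in 3 families 2 copies had. RpS5a had 134 in replicate 1, 152 in replicate 2 and 288 in the pooled data. RpS5b, a copy known for expression in the germline, had 27.0 and 14.1 in replicates 1 and 2 and 28.3 in the pooled data. Its region lay 58 bp upstream in replicate 1, 538 bp upstream in replicate 2 and 579 bp upstream in the pooled data. RpL22 stood at 431, and RpL22-like, likewise known from the germline, had no own region in any of the lists. RpS10b had 255 (replicates 159.6 and 104), and RpS10a had no pooled region, 14.6 in replicate 1 and none in replicate 2. RpS19a had 99.8 (replicates 61.0 and 37.9), and RpS19b had no own region in any list. RpS28b had 343 (176 and 170.0), RpS28a had 38.0 (17.1 and 32.1), and RpS28-like had no own region. RpS15Aa had 204 (146 and 57.3), and RpS15Ab had 22.0 in the pooled data, in a region 597 bp downstream. RpL10Ab had 146 (91.2 and 56.9), RpL37-1 had 176 (112 and 75.8), and their counterparts RpL10Aa and RpL37-2 had no own region in any list.

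RpL7 and RpL24 share their names with RpL7-like and RpL24-like, whose yeast counterparts Rlp7 and Rlp24 act in ribosome assembly. RpL24 had 399, against 64.2 at RpL24-like (replicates 43.5 and 14.4). RpL7-like had no own pooled region and no region in replicate 1, and 12.4 in replicate 2. RpLP0-like, whose yeast counterpart is the assembly factor Mrt4, differed from these: it had 123 in replicate 1, 187 in replicate 2 and 315 in the pooled data, at a level like that of RpLP0. Its summit lay 60 bp upstream of its start and 27 bp from a start of 14-3-3zeta. In the other families with 2 peaks, RpL34b had 451 and RpL34a 134 (replicates 80.1 and 52.7), and RpS14b had 164 (replicates 107 and 64.3) and RpS14a 99.1. The RpL34a summit lay 114 bp upstream of its start and 115 bp from a start of Trmt61. RpS14a and RpS14b lie in tandem with starts 1156 bp apart and are near-identical, so reads may be shared between them. The sources used here do not say how reads that map to several copies were treated, which would bear on copies alike in sequence near the start.

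In the same window, the runs below set 4 copies with an own thresholded summit beside the copy of the same family without one. RpL7-like follows, to be set beside RpL7 above. Over the 10 families with 1 such copy, a TCT core was present in 7 of the 10 copies with an own summit and in 3 of the 11 copies without, which were RpS5b, RpL7-like and RpL22-like. RpL7, RpL24 and RpL37-1 had a summit and no match to CTTTTT or CTTTCT there. Pyrimidine runs of other letters at a start were not counted, such as CTTTTC, which RpL24 and RpL37-1 hold within 10 bp of the start. These counts were not tested.
RpS5a (chrX:17148235-17148334, minus strand): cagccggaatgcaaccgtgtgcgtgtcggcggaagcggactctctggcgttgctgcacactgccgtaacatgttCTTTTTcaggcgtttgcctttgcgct
RpS5b (chr3R:14901534-14901633, minus strand): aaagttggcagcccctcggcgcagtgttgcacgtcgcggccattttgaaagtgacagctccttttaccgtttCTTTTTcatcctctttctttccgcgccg
RpS10b (chrX:19597970-19598069, plus strand): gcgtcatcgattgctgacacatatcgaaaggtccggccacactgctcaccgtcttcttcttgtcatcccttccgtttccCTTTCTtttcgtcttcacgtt
RpS10a (chr3R:27652690-27652789, plus strand): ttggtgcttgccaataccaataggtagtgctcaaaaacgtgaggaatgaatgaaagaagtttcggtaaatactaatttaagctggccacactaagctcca
RpS19a (chrX:16637824-16637923, plus strand): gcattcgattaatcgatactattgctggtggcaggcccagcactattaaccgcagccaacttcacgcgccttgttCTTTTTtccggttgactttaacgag
RpS19b (chr3R:23933501-23933600, minus strand): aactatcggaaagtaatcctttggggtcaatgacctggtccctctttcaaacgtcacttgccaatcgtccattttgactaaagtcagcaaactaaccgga
RpL10Ab (chr3L:11822781-11822880, plus strand): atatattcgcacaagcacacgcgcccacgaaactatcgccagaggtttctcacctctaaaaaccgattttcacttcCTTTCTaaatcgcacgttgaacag
RpL10Aa (chr3R:15037296-15037395, plus strand): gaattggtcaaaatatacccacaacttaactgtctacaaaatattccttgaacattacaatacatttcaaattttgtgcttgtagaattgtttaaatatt
RpL7-like (chr2L:12056278-12056377, plus strand): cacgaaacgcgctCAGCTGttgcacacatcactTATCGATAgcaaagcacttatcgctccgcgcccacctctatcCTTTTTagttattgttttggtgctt

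**Figure D3:**
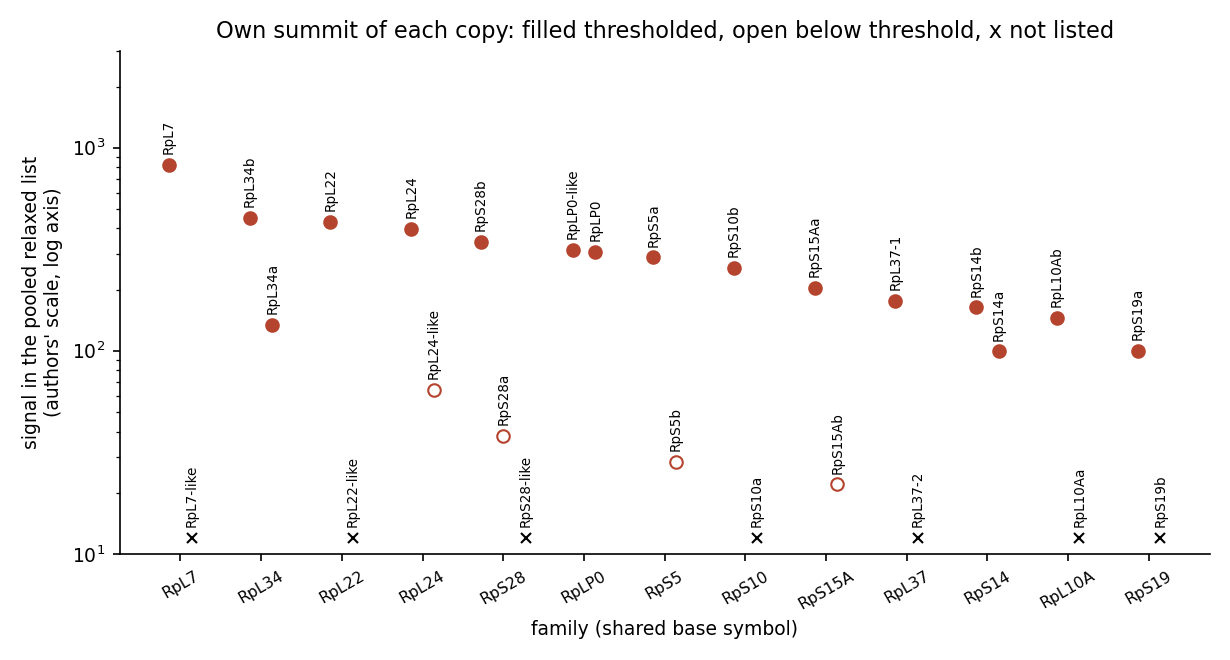
Signal of the own summit in the pooled relaxed list (y axis, authors' scale, log axis) for each copy of the 13 families that share a base symbol (x axis). Filled circles passed the IDR threshold, open circles did not, and crosses at the bottom mark copies with no own region in the pooled list; the 10 families with 1 filled circle have it at 99.8 (RpS19a) to 824 (RpL7).

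Across all members, the TCT core, as CTTTTT or CTTTCT, was found at 30 of 93 starts (32.3%), against 1.95% of 13944 promoters of protein-coding genes. It was found at 21 of 67 members with an own thresholded summit (31.3%) and at 9 of 26 without one (34.6%). The other cores were counted in a window of 250 bases before and 50 bases from the start on. The DRE was present in 28 members (30.1%), against 8.94% of all promoters. It was found in 24 of 67 members with an own thresholded summit (35.8%) and 4 of 26 without (15.4%). Motif 1 was present in 14 members (15.1%), against 7.54%, with shares of 14.9% and 15.4% in members with and without a summit. CACGTG was present in 11 members (11.8%), against 4.26%. TATAAA was present in 45.2% of members, against 45.3% of all promoters. GAGAGA was present in 4.3%, against 12.6%, and CAGCTG in 9.68%, against 17.9%. Within 50 bp of the 67 own summits TATCGATA was found at 13 (19.4%), against 3.64% of all 3930 thresholded summits, and GGTCACAC at 6 (8.96%), against 2.52%. CACGTG was found at 3 (4.48%), against 1.48%, TATAAA at 3 (4.48%), against 10.3%, and CAGCTG at 5 (7.46%), against 6.51%. GAGAGA was found at none of the 67, against 6.16%. The 3930 summits were not limited to those near a start, as the 67 were. The end of GGTCACAC can overlap the start of CACGTG. A match describes letters in a window, not a site in use, and these shares were not tested.

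**Figure D4:**
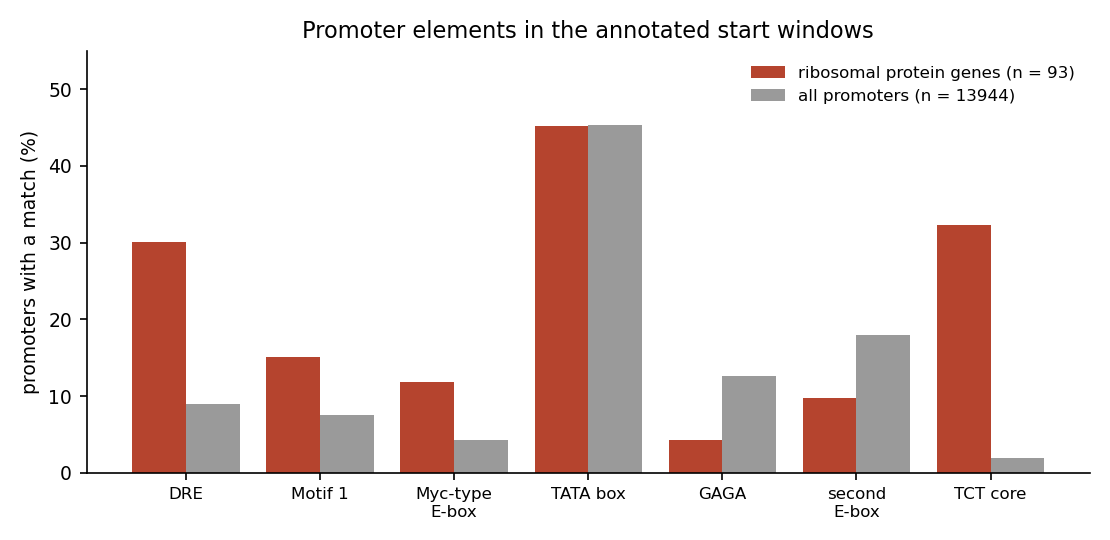
Share of promoters with a match (y axis, %) to each of 7 promoter elements (x axis) in ribosomal protein genes (red, n = 93) and in all promoters of protein-coding genes (grey, n = 13944). The TCT core (32.3% against 1.95%) and the DRE (30.1% against 8.94%) stand higher in the ribosomal protein genes, the TATA box is level, and the GAGA element (4.3% against 12.6%) stands lower.

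In 4 members the strongest thresholded summit within 1 kb lay nearer to another gene by more than 200 bp. For RpL8 it had a signal of 2358 but lay 854 bp from its start and 62 bp from a start of msn, a kinase gene, while the own summit of RpL8 had 293. RpS28a (signal 204) had it 539 bp away and 112 bp from Mgat2. RpS15 (123) had it 577 bp away and 275 bp from CG4927. RpS19b (172) had it 893 bp away and 511 bp from CG5854. This was the most distant summit counted, and the next member beyond the limit of 1 kb was RpS15Ab, at 1696 bp. RpS15 had an own region below the threshold, at 60.0 in the pooled data. Some summits stood between divergent genes. The summit 17 bp upstream of the RpL13 start (pooled signal 295, replicates 173 and 123) also lay 67 bp from the start of Dref, the gene of the DRE-binding factor. The summit of RpS27A lay 28 bp upstream of a start that Ip259 shares on the same strand. With a gene of opposite strand starting within 500 bp upstream, 33 of 39 members (84.6%) had a thresholded summit within 1 kb, and without such a neighbour 37 of 54 (68.5%) had. Counting only members whose own start was the nearest to a summit, the shares were 28 of 39 (71.8%) and 36 of 54 (66.7%). All protein-coding genes were not split by such a neighbour, so no background share stands beside these counts.

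All 15 members on the X chromosome had an own thresholded summit, from 99.1 at RpS14a to 431 at RpL22. On the autosomes 55 of 78 (70.5%) had a thresholded summit within 1 kb. Over all protein-coding genes the shares were 21.3% on X and 23.7% on the autosomes. Among members that are the sole gene of their name, 6 of 6 on X and 46 of 60 (76.7%) on the autosomes had one, and the difference was not tested. The median own signal was 204 over the 15 members on X and 252 over 52 autosomal members. The counts were 12 of 19 on 2L, 15 of 21 on 2R, 10 of 14 on 3L and 17 of 23 on 3R. RpS3A, the sole member on the small chromosome 4, had 93.9 in replicate 1, 94.2 in replicate 2 and 191 in the pooled data, with its summit 12 bp upstream of its start, while 12.5% of the protein-coding genes of that chromosome had a thresholded summit within 1 kb.

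Replicates gave the members similar values in relation to their own lists. All 67 own summits had a region in both replicates with its summit within 200 bp, and 63 of them were among the 3930 strongest regions of each. Of 3863 other thresholded summits 3847 had such a region in both, and 2904 were among the strongest of each. The own summits moved by a median of 5 bp in replicate 1 and 7 bp in replicate 2 from the thresholded position, against 8 and 9 bp at the others. Across the 67 summits the signals of the 2 replicates had a Spearman's rho of 0.887, against 0.697 across the others. Their log2 values had a Pearson's r of 0.868, against 0.859. These are descriptions across summits that share libraries, a control and an IDR filter that favours such agreement. Replicate 1 gave the higher signal at 59 of 67 (88.1%), against 71.3% of 3847 other thresholded summits. By rank within the list, replicate 1 placed 43 of 67 higher (64.2%), against 50.7%. RpS14a was far apart in the 2 lists, at rank 1900 in replicate 1 and 13972 in replicate 2. RpL18 went the other way, at rank 5045 in replicate 1 and 2054 in replicate 2.

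**Figure D5:**
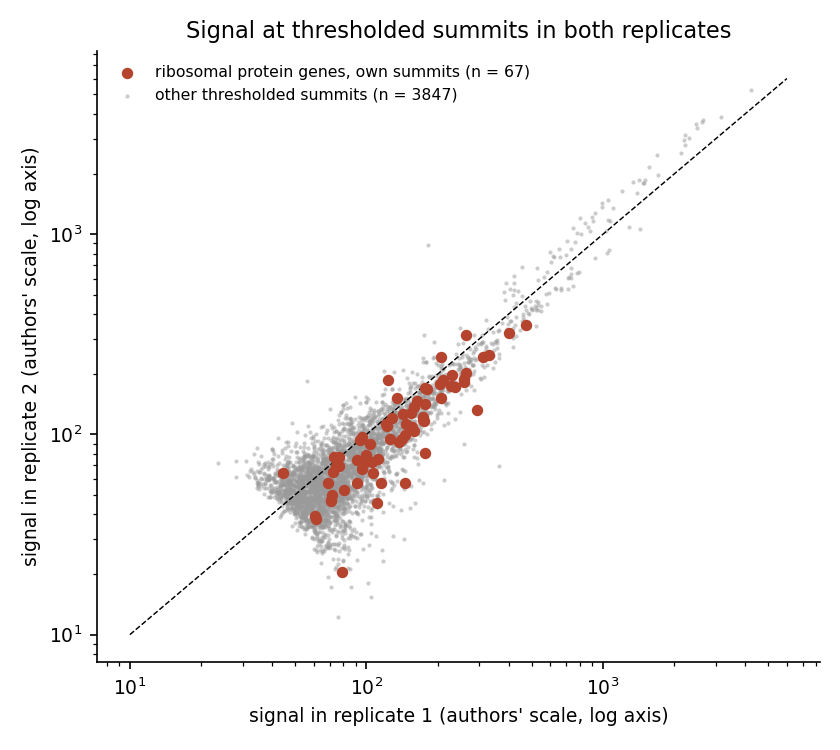
Signal of thresholded summits in replicate 1 (x axis) and replicate 2 (y axis), each the strongest region with its summit within 200 bp, on the authors' scale with log axes. Red points are the 67 own summits of ribosomal protein genes, grey points the 3847 other summits matched in both replicates, and the dashed line marks equal values; 59 of the 67 red points lie below the line.

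Related genes were counted in the same way. Mitochondrial ribosomal protein genes had a thresholded summit within 1 kb in 19 of 73 (26.0%), close to the 23.3% of all protein-coding genes, although 68 of 73 (93.2%) had a pooled relaxed summit there, as did 92.5% of the cytoplasmic genes. Within 100 bp 9 of the 73 (12.3%) had one, and the strongest nearby summits lay 138 to 383 bp from mRpS26 (signal 1798), mRpS23 (1236), mRpL41 (1177) and mRpS10 (1082). Translation factor genes had 22 of 54 (40.7%), with eIF2Bbeta (2369, with the summit 678 bp away and 41 bp from Ugalt), eIF6 (907), eEF1gamma (421) and eIF3h (358) at the top. Of 17 nucleolar and ribosome assembly genes 8 had one (47.1%). Ns2, a nucleolar GTPase, led (420.0, with the summit 147 bp away and 129 bp from POSH). Fib, the methyltransferase fibrillarin (227, 75 bp away and 23 bp from CG3085), Nopp140 (180.3) and Tsr1 (124) followed. Among 11 regulators of ribosomal protein genes and their mRNAs, 5 had one: larp, whose mammalian counterpart binds mRNAs with a 5′ pyrimidine run (1365), Dref (295, the summit shared with RpL13), Irbp18 (293, 218 bp away and 8 bp from APP-BP1), the translation inhibitor gene Thor (288), and Trf2. M1BP, Max, Myc, S6k, Tbp and Xrp1 had none. Genes whose own start was the nearest to a thresholded summit were fewer in each list. In the order above they were 7 of 73 (9.59%), 15 of 54 (27.8%), 4 of 17 (23.5%) and 3 of 11 (27.3%). The share was 16.9% over all protein-coding genes. No test of these lists against each other was made.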

How the data were processed

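ChIP-seq of whole her-GFP embryos was deposited as lists of regions for 2 biological replicates, and samples were grouped by their labels. Per the labels and deposited notes, each relaxed list came from a replicate's alignment, or both, with 1 control, and the thresholded peaks came from these lists. The sources used here do not give the aligner or caller. The deposited signal value per region has no stated scale, and the deposited −log10 q-value was 4.13 for every thresholded peak, so regions were ranked by signal. With no read depth, no counting interval is given. The dm3 lists were not used here, and the values of some members are not reported here.

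Genes and starts were taken from Ensembl release 115 and sequence from RefSeq Release 6; 99.9% of annotated start codons read ATG in it. Summits were paired with every start within 1 kb (Python 3.11.15, pandas 2.3.3), and the pairing recovered 200 of 200 planted summits. No test was run, because there was 1 group and the list was not compared with chance. Members, lists, motifs and the naming rule were chosen with earlier results of these data known. Named were the 15 members with the strongest summit, those without a thresholded summit, those nearer another gene, copies in families, members near the threshold and the strongest 4 of other lists; further members were chosen by their role in the ribosome after their values were seen. Of the listed symbols 28 of 30 matched. Alternatives changed the distance, list of regions, start set and TCT tolerance.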

Additional observations from a re-analysis of the deposited data

How the results depend on the processing

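The count of 70 genes with a thresholded summit within 1 kb stayed between 60 and 80 under every alternative tried on all 93 genes, and the 64 genes nearest to their summit stayed between 55 and 73. Among the 66 genes that are the sole gene of their name, an alternative added after seeing the data, the count was 52. The pooled relaxed count of 86 stayed between 80 and 89, and was 63 of those 66. The same counts over all protein-coding genes were not made under these alternatives, so the ranges describe the members alone. The median strongest signal of 236 was 258 for the 1965 strongest peaks and 204 for 7860 pooled regions. With replicate 1 alone it was 131 and with replicate 2 alone 102, each to be read against that replicate's own list. The median position of -15 bp was -13.5 bp with 7860 pooled regions and -10.5 bp with the 5′ end of the gene in place of all starts. The TCT core was at 30 starts within 10 bp, at 10 within 2 bp and at 39 within 25 bp of the annotated start. The letters taken as the core were not varied, so starts with other pyrimidine runs such as CTTTTC were not counted. No read depth, untagged line or RNA level was at hand, so detection limits, tag-independent recovery and transcription could not be set beside the counts.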

Other observations

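Many introns of ribosomal protein genes carry small nucleolar RNAs, which guide the modification of ribosomal RNA. Of the 93 genes, 29 hold 76 annotated snoRNA genes on their own strand. A thresholded summit lay within 1 kb of a start of 24 of these 29 hosts (82.8%) and of 46 of the 64 genes without one (71.9%), against 23.3% of all protein-coding genes. The median own signal was 266 over 24 hosts and 226 over 43 other members, which lies within the spread of either group.

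The peaks at ribosomal protein genes were narrow. The most common width in the thresholded list was 404 bp, and 53 of the 67 own peaks (79.1%) were narrower, 11 had that width and 3 were wider. Among the own peaks of 2736 other protein-coding genes 36.0% were narrower and 60.1% had that width. The median width was 249 bp, against 404 bp. The 11 members with a width of 404 bp had signals from 96.8 (RpL6) to 191 (RpS3A), below the members' median of 245. For other genes the median signal was 145, and widths were not compared at like signal. The sources used here do not say how the width was set.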
